A study of Mus musculus with 60 samples.

Results

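The conducting airways of the mouse lung are lined mainly by club cells, which secrete secretoglobins and oxidize inhaled and ingested compounds, and by ciliated cells, whose beating cilia move the mucus layer. The genes examined here were chosen as markers of these cells. Of 8 genes named, 7 had a probe whose RefSeq accession mapped to the symbol, which gave 8 probes among 55681 on the array. They were the secretory genes Scgb1a1, Cyp2f2, Scgb3a1 and Bpifa1 and the ciliated cell genes Foxj1, Tekt1 (2 probes) and Ccdc39. The remaining gene, Scgb3a2, was not analysed here.

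The animals were 20 males of the transgenic Muta Mouse strain, about 10 weeks old, from which lung, liver and forestomach were each profiled. They received the polycyclic aromatic hydrocarbon benzo(ghi)perylene (BghiP) in olive oil by gavage for 28 days, and all tissues were taken 72 h after the last dose. The groups were D0 (olive oil alone, 0 mg/kg-bw/day), D1 (6.25), D2 (12.5) and D3 (25), with 5 mice in each of the 12 combinations of dose and tissue. RNA came from a random slice of each organ, and fewer airway cells in a slice and less RNA per cell cannot be told apart. Each array carried tissue RNA labelled with Cy5 and 1 common reference, Universal Mouse Reference RNA, a pool of RNA from cell lines, labelled with Cy3. Values are log2 Cy5/Cy3 after normalization within arrays, and a probe was called when its adjusted p in limma was 0.05 or less with a change of at least 1.5-fold. Every dose was set against the same 5 D0 mice. On every slide the arrays of D0, D1, D2 and D3 lay in columns 1, 2, 3 and 4, so dose and column cannot be told apart.

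Scgb1a1 encodes the main secretoglobin of club cells, and Cyp2f2 the cytochrome P450 of mouse club cells that oxidizes naphthalene and which hepatocytes also make. Scgb3a1, another secretoglobin, and Bpifa1, an antimicrobial surfactant protein, are best known from the larger and upper airways. Foxj1 is the transcription factor that switches on the motile cilium program, Tekt1 encodes a filament protein of ciliary microtubules, and Ccdc39 encodes a protein that sets the spacing of dynein arms and radial spokes.

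Regulatory factor X proteins, which act with Foxj1 on ciliary genes, bind the X-box, of which GTTGCC is a half-site. Because the ciliated cell genes varied together in lung, the 250 bases before the start of Tekt1 and Ccdc39 are shown, read 5′ to 3′ on the coding (minus) strand of GRCm38.p6 from the RefSeq promoter table. Capitals mark GTTGCC or its reverse complement. The Tekt1 stretch lies at chr11:72361883-72362132 and the Ccdc39 stretch at chr3:33844311-33844560.
Tekt1: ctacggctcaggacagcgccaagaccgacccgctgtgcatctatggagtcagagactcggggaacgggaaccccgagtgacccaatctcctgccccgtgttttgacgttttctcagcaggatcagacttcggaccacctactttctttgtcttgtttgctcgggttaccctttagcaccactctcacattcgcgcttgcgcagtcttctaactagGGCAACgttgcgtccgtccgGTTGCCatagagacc
Ccdc39: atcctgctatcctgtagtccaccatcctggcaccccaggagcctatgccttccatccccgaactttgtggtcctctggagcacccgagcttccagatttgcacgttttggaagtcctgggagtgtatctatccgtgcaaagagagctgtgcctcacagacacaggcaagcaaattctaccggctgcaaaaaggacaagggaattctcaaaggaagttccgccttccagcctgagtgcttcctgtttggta
The letters stood on both strands of the Tekt1 stretch, ending 29 and 9 bases before the start, and did not occur in the Ccdc39 stretch. A second start of Tekt1 in the table had no match. Of 32851 promoter stretches of this length, 3425 (10.4%) held the letters, against 20 of 54 stretches of other motile cilium genes (37%) and 1 of 6 stretches of the genes examined. The forkhead core TGTTTA, searched in the same way, was in 12% of all stretches and in 9 of 54 stretches of other motile cilium genes (16.7%). It was in none of the 6 stretches of the genes examined, which covered 5 genes. These matches describe the letters alone.

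In lung, all members except Ccdc39 and Bpifa1 were well above background in Cy5 on all 20 arrays, Bpifa1 on 19 and Ccdc39 on 16. In liver, only Cyp2f2 was above background on all 20 arrays, Scgb1a1 was on 9, Foxj1 on 1 and the others on 0. In forestomach, Scgb1a1 and Cyp2f2 were above background on all 20 arrays and Scgb3a1 on 14, while Bpifa1 and Tekt1 were on 1 and Foxj1 and Ccdc39 on 0. No Cy5 spot was saturated.

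**Figure D1:**
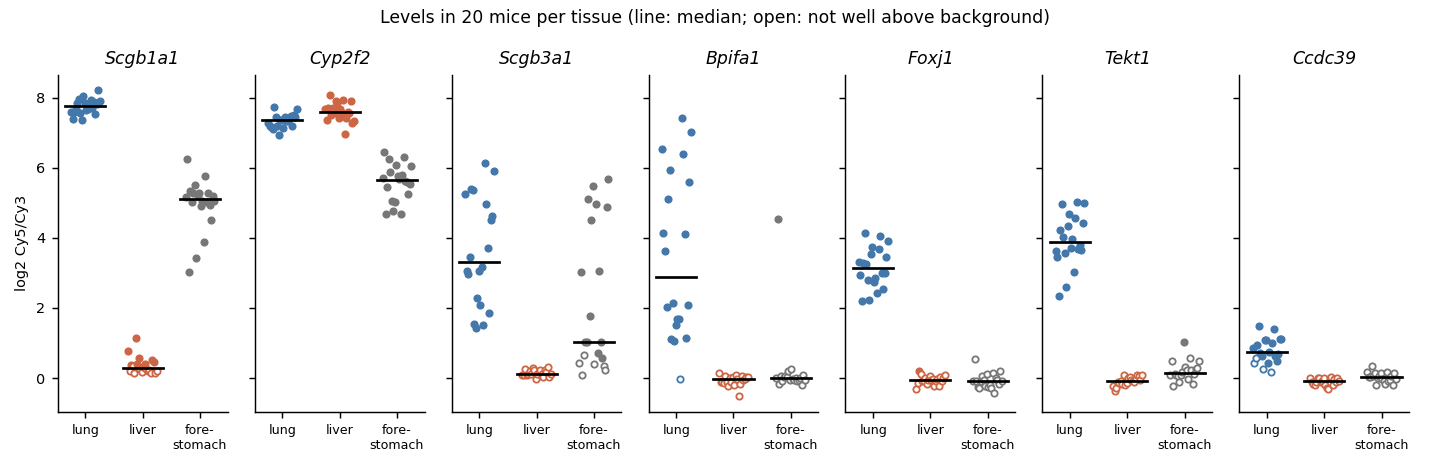
Log2 Cy5/Cy3 of the 7 genes in lung, liver and forestomach, with 1 point per mouse, a line at the median of 20 mice and open points where Cy5 was not well above background. The ciliated cell genes are higher in lung than in both other tissues, Scgb1a1 is also present in forestomach, and Cyp2f2 is high in all 3 tissues.

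Scgb1a1 in lung of the D0 mice was 7.60, 7.40, 7.60, 7.67 and 7.85 (log2 Cy5/Cy3, mice in order of number). The D1 mice had 7.96, 7.57, 7.36, 8.04 and 7.85, and the D2 mice 7.67, 7.68, 7.81, 7.93 and 7.71. The D3 mice had 7.88, 7.55, 7.82, 8.23 and 7.92, and all 4 groups overlapped. Across 20 lungs the highest value was 1.83-fold the lowest. Its SD within dose groups, 0.211, was at the 55.5th percentile of the 31022 probes tested in lung, and in scaled Cy5 its SD was 0.503. Scaled Cy5 is the tissue channel after loess and quantile scaling of array brightness between arrays. It is not divided by the reference, which still enters the scaling through the mean of both channels. It thus differs from the ratio in both the use of the reference and the scaling.

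In lung Cyp2f2 ran from 6.93 to 7.73 with a median of 7.35, and its SD within doses was 0.195, or 0.296 in scaled Cy5. In liver it ran from 6.97 to 8.09 with a median of 7.58, so the ranges of lung and liver overlapped.

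Scgb3a1 and Bpifa1 differed widely between mice of the same dose. Scgb3a1 in lung was 5.26, 3.05, 2.96, 3.45 and 5.40 in D0, and 5.36, 1.55, 1.42, 2.30 and 3.04 in D1. It was 2.07, 3.16, 1.52, 6.15 and 4.98 in D2 and 3.73, 1.85, 4.51, 4.62 and 5.92 in D3. Every dose group thus held both high and low mice, and the highest lung was 26.6-fold the lowest.

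Bpifa1 in lung was 6.54, 4.14, 3.63, 2.03 and 5.11 in D0, and 5.95, 1.11, 2.15, 1.05 and 1.5 in D1. It was 1.70, 1.69, -0.025, 7.42 and 6.40 in D2 and 4.11, 1.15, 2.09, 5.61 and 7.01 in D3. The mouse with the highest value, D2 mouse 14, was also the highest for Scgb3a1, and the lowest value, D2 mouse 13, was not above background. The 19 lungs above background ran from 1.05 to 7.42. The within-dose SDs of 2.43 for Bpifa1 and 1.59 for Scgb3a1 lay at the 100th and 99.9th percentiles of tested probes. In scaled Cy5 they were 2.94 and 2.61. With dose and slide means removed, the SD of Scgb3a1 was 1.37 as a ratio but 0.38 with processed signals, and that of Bpifa1 2.26 and 1.70.

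In lung, Foxj1 ran from 2.20 to 4.14 with a median of 3.14, the Tekt1 probe that was brighter in lung from 2.34 to 5.02 with a median of 3.88, and Ccdc39 from 0.17 to 1.48 with a median of 0.74. The second Tekt1 probe ran from 2.69 to 5.12. Their within-dose SDs of 0.632, 0.793 and 0.387 for Foxj1, Tekt1 and Ccdc39 were at the 96.4th, 98.5th and 87.5th percentiles. In scaled Cy5 the SDs were 0.457, 0.584 and 0.308, so that Scgb1a1 was then no more even than Foxj1 or Ccdc39.

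**Figure D2:**
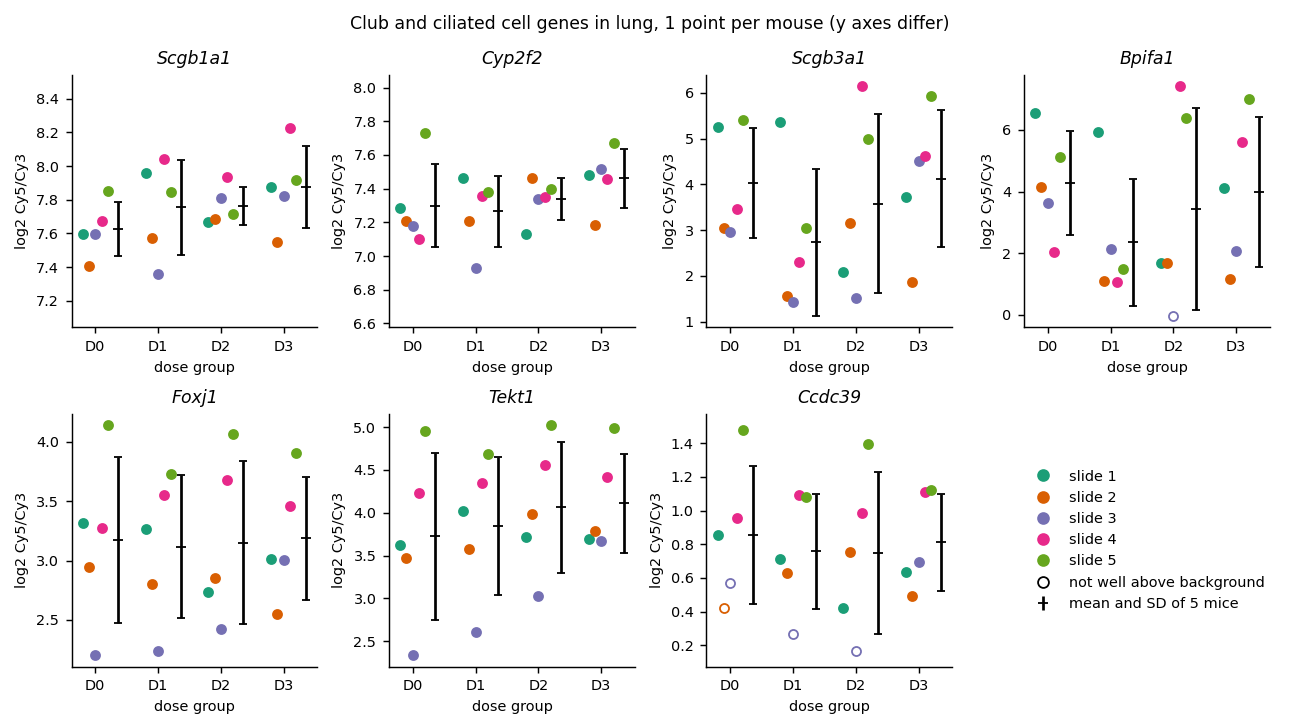
Log2 Cy5/Cy3 in lung by dose group, with 1 point per mouse coloured by array slide and the mean ± SD of 5 mice beside each group. The dose groups overlap for every gene, and slide 5 holds the highest Foxj1 and Tekt1 value of every dose group.

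The comparison of each dose with D0 asked whether oral BghiP changed these airway genes. In lung, limma called 0 of the 8 probes at D1, D2 or D3, as it called 0% of all 31022 probes at each dose. At an unadjusted p under 0.05 the count was also 0 of 7 genes at every dose, where 2.22%, 3.4% and 4.81% of all probes had one at D1, D2 and D3. With slide as a block 0 of the 8 were called at any dose, where the background was 0% at D1 and D2 and 0.0677% at D3. Tekt1 at D2 and D3 and Scgb1a1 at D3 then had an unadjusted p under 0.05, that is 1 of 7 genes at D2 and 2 of 7 at D3, where 12.3% and 15.6% of all probes had one.

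Scgb1a1 at D3 was higher than D0 by 0.25 ± 0.13 (SE; log2; 95% interval -0.020 to 0.53), with 4 of 5 mice above the D0 mean. The adjusted p in limma was 0.998, or 0.208 with the slide block. With the slide block the interval was 0.052 to 0.456, and D3 was above D0 on all 5 slides. In scaled Cy5 the difference was -0.070 ± 0.29, while in Cy5 without scaling the D3 mean was 18.56 and the D0 mean 18.21. Tekt1 at D3 differed by 0.39 ± 0.46 (-0.57 to 1.35), with adjusted p-values of 0.998 and, with the slide block, 0.235. The SE and interval with the block were 0.155 and 0.060 to 0.715. Without D0 mouse 3 the difference of Tekt1 was 0.041, and without D0 mouse 5 0.70, in fits without the slide block. These 2 mice were on slides 3 and 5, where Tekt1 was lowest and highest. Leaving 1 of them out thus also unbalances slide and dose. The difference of Scgb1a1 was 0.17 without D3 mouse 19. The second Tekt1 probe gave 0.21 ± 0.41. Cyp2f2 differed by 0.16 ± 0.12 (-0.094 to 0.42), or 0.27 without D0 mouse 5.

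For the 2 variable secretory genes the intervals were wide. Bpifa1 at D1 differed by -1.94 ± 1.40 (-4.87 to 0.99), with 1 of 5 mice above the D0 mean, and at D3 by -0.30 ± 1.40 (-3.23 to 2.63). Scgb3a1 at D1 differed by -1.29 ± 0.92 (-3.21 to 0.63) and at D3 by 0.10 ± 0.92 (-1.82 to 2.02). The lung of D0 mouse 1, which was high for both genes, also carried markers of other tissues. Its mean over 6 skeletal muscle genes was 5.18, where the highest of the other 19 lungs was 0.42, and its mean over keratinized squamous epithelium genes was 4.03. The lung of D3 mouse 20, the highest of D3 for both genes, had a mean over hepatocyte genes of 5.05, where the other 19 lungs were at 1.47 or lower, and a glandular stomach mean of 1.28. Without it the D3 difference was -1.05 for Bpifa1, -0.35 for Scgb3a1, 0.11 for Cyp2f2 and 0.17 for Tekt1. That lung was on slide 5, so leaving it out without a slide block also unbalances slide and dose. The part of these other tissues in the values was not tested. Without each D0 to D3 mouse in turn, the D1 difference of Bpifa1 ranged from -2.84 to -1.38 and that of Scgb3a1 from -1.95 to -0.95.

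Foxj1 at D3 differed by 0.011 ± 0.37 (-0.76 to 0.78) and Ccdc39 by -0.046 ± 0.23 (-0.52 to 0.43). The slope over the 4 doses was significant for 0 of 8 probes in limma (background 0%). That of Scgb1a1 was 0.0093 ± 0.0048 per mg/kg-bw/day (unadjusted p = 0.066, limma). With slide as a block 0.306% of all probes and 0 of the 8 had a slope, with unadjusted p-values of 0.0136 for Tekt1 and 0.0163 for Scgb1a1 (adjusted p = 0.209 and 0.226, limma). An unadjusted p under 0.05 for the slope was found for 4.78% of all probes without the block and 14.3% with it.

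In liver, 2 members could be tested, and 0 were called at any dose (background 0%, limma), with 0 at an unadjusted p under 0.05, where 3.03%, 4.15% and 12.1% of all probes had one at D1, D2 and D3. Cyp2f2 differed from D0 by 0.025 ± 0.16 at D1, -0.15 ± 0.16 at D2 and -0.13 ± 0.16 at D3. In forestomach, 3 members could be tested and 0 were called (background 0%, limma). Scgb3a1 at D1 was the member with an unadjusted p under 0.05, at 2.54 ± 1.19 (adjusted p = 0.529, or 0.201 with slide as a block; limma), where 9.37% of all probes had one, or 18.1% with the block. Of 72 tests of whether a dose effect differed between 2 tissues, in the fit without mouse as a block, 0 passed (background 0%). The lowest adjusted p in limma was 0.506.

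Other genes of the same cells were taken from lists. Of 22 other club and secretory genes, 21 were tested in lung, and at D3 16 were higher than in D0 and 5 lower, with a median of 0.15, where 52.6% of all probes were higher and the median was 0.0088. None was called. At D1 the same list had 10 higher and 11 lower. Without the lung of D3 mouse 20, described above, 11 were higher and 10 lower at D3 with a median of 0.016, or 14 and 7 with slide as a block, and without D0 mouse 1 16 were higher and 5 lower. In lists of other lung cells, 4 of 4 alveolar type 1 genes (median 0.20), 3 of 5 alveolar type 2 genes (0.20), 4 of 4 neuroendocrine genes (0.30) and 2 of 2 airway cartilage genes (0.096) were above D0 at D3, while 0 of 5 genes of basal cells of large airways were (-0.51), and 0 were called. D0 mouse 1 had a mean over the basal cell genes of 2.77, where the other lungs were at 0.23 or lower, and without it 3 of 5 were above D0 (median 0.14), with medians of 0.10 and 0.11 for the alveolar type 1 and type 2 genes. Without D3 mouse 20, 3 of 4 neuroendocrine genes were above D0 (0.14). Ephx1, microsomal epoxide hydrolase, had the largest difference at 0.48 ± 0.11 (adjusted p = 0.512, limma), which passed with the slide block (0.0244) at less than 1.5-fold. With the block its adjusted p was 0.0291 without D3 mouse 20 (difference 0.50) and 0.0588 without D0 mouse 1. It was followed by the tight junction gene Cldn10 at 0.41 ± 0.60 and by Chad at 0.33 ± 0.47, which were at 0.19 and 0.046 without D3 mouse 20. At the other end, the immunoglobulin receptor Pigr was at -0.29 ± 0.21 and Gsta3 at -0.063 ± 0.13 (-0.16 without D0 mouse 1).

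Of 58 other motile cilium genes, 53 were tested, with 39 higher and 14 lower at D3, a median of 0.093 and 0 called. At D1 25 were higher and 28 lower, and without D3 mouse 20 23 were higher and 30 lower at D3, or 46 and 7 with slide as a block. Without D0 mouse 1 37 were higher and 16 lower. The largest differences were those of Fam183b (0.47 ± 0.44), Spag6l (0.41 ± 0.54) and the dynein heavy chain Dnah5 (0.38 ± 0.47), and the most negative those of Mlf1 (-0.43 ± 0.34), Cfap53 (-0.16 ± 0.30) and Rfx2 (-0.092 ± 0.091). Without D0 mouse 1 Mlf1 was at -0.035. Without D3 mouse 20 Spag6l was at 0.27, Dnah5 at 0.20, Cfap53 at -0.30 and Rfx2 at -0.14. The 10 airway defence and mucus genes had 8 higher at D3, a median of 0.21 and 0 called, with 4 higher at D1 and, at D3, 4 higher without D3 mouse 20 (median -0.17) and 10 higher without D0 mouse 1 (median 0.32). Among them Tff2 was at 0.41 ± 0.57 (-0.097 without D3 mouse 20), Muc5ac at 0.37 ± 0.15 and Lyz2 at 0.32 ± 0.23, against Slpi at -0.54 ± 0.62 (0.23 without D0 mouse 1), Bpifb1 at -0.078 ± 0.69 and Reg3g at 0.0057 ± 1.22. Bpifb1 was at -0.40 without D3 mouse 20 and 0.13 without D0 mouse 1, and Reg3g at -0.72 and 0.67. None of these differences passed adjustment in limma, and with slide as a block Ephx1 was the only gene of the 3 lists at an adjusted p of 0.05 or less at D3.

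The variation of the ciliated cell genes in lung followed the array slides. Each of the 5 lung slides held 1 mouse of every dose, so slide and dose were balanced, but dose and array column were not. Foxj1 averaged 3.08, 2.79, 2.47, 3.49 and 3.96 on slides 1 to 5. Tekt1 averaged 3.77, 3.70, 2.91, 4.39 and 4.91, and Ccdc39 0.66, 0.58, 0.42, 1.04 and 1.27. All 3 were lowest on slide 3 and highest on slide 5.

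The difference between slides within doses had an adjusted p in limma of 2.2e-05 for Foxj1, 1.8e-06 for Tekt1, 1.7e-04 for Ccdc39 and 0.0235 for Scgb1a1, where 56.5% of all probes passed. It did not pass for Scgb3a1 (0.0651), Bpifa1 (0.162) or Cyp2f2 (0.179). Removing the slide means lowered the SD of Tekt1 from 0.793 to 0.273 and of Foxj1 from 0.632 to 0.271, but that of Bpifa1 from 2.43 to 2.26. The share of probes well above background moved with slide too, from 39.0% on slide 3 to 58.4% on slide 5, and its part in these differences was not tested. In scaled Cy5, the same slides were lowest and highest for all 3 ciliated cell genes, with Tekt1 1.26 higher on slide 5 than on slide 3 in place of 2.00. With processed signals Tekt1 differed by 0.90, and Foxj1 was lowest on slide 2 with a difference of 0.68 in place of 1.49, while Ccdc39 differed by 1.65 in place of 0.85. In Cy5 without scaling all 7 genes were lowest on slide 3 and highest on slide 5, by 1.58 for Scgb1a1 and 2.40 for Cyp2f2. In scaled Cy5 these 2 genes turned, lowest on slide 5 and highest on slide 3, by 1.33 and 0.53.

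**Figure D3:**
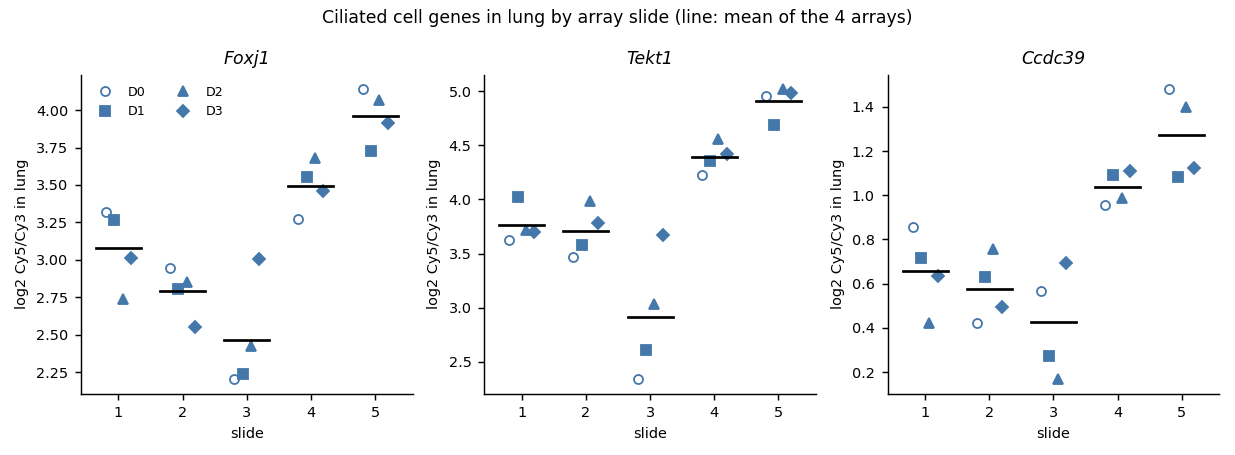
Log2 Cy5/Cy3 of Foxj1, Tekt1 and Ccdc39 in lung against array slide, with 1 symbol per mouse shaped by dose group and a line at the mean of the 4 arrays of a slide. Slide 3 has the lowest mean and slide 5 the highest for each gene.

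To ask whether the genes rose and fell together between mice, the 21 pairs of the 7 genes were correlated over 20 lungs after the dose means had been removed. Of these, 19 pairs passed (two-sided permutation test on Pearson's r with 100000 resamples, Benjamini-Hochberg over 21 pairs). The share of all gene pairs that would pass was not computed. With slide means removed as well 12 of the 21 passed, and with scaled Cy5 11. The resamples shuffled the 20 values freely although means had been removed, so all of these p-values are too small. This weighs most with slide means removed, where pairs near the threshold may not hold.

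Among the ciliated cell genes, Foxj1 and Tekt1 had r = 0.961 (rho = 0.919), Foxj1 and Ccdc39 r = 0.929 (rho = 0.904) and Tekt1 and Ccdc39 r = 0.906 (rho = 0.905), each with an adjusted permutation p of 5.25e-05 on r, from the smallest p that the resamples can give. Without the 2 lungs farthest from the median the values were 0.948, 0.897 and 0.921. After removal of slide means they were 0.825, 0.632 and 0.537 (adjusted permutation p 0.00021, 0.0081 and 0.0234).

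Scgb3a1 and Bpifa1 had r = 0.880 and rho = 0.800 (adjusted permutation p 5.25e-05 and 0.00038), and r = 0.816 without the 2 farthest lungs. With slide means removed r was 0.819, and without D0 mouse 1 it was 0.874. Scgb1a1 and Cyp2f2 had r = 0.665 and rho = 0.586 (adjusted permutation p 0.0031 and 0.0113), and 0.875 with slide means removed. The pairs that did not pass were Bpifa1 with Scgb1a1 (r = 0.374) and with Cyp2f2 (r = 0.417), whose adjusted permutation p-values were 0.106 and 0.0723. Scgb3a1 was correlated with all 6 other genes, and with Foxj1 at r = 0.771, or 0.749 with slide means removed. With slide means removed its r with Scgb1a1 was 0.317 and did not pass (adjusted permutation p 0.214). Those with the other 5 genes passed, by p-values that are too small, as said above.

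Among 10754 other genes above background on all 20 lung arrays, those whose pattern was most like each member were sought by Pearson's r over the same 20 lungs. For Scgb3a1 these were Bpifb1 (r = 0.973), the mucin Muc5b (0.951) and lactotransferrin, Ltf (0.936), all secretory products of airway epithelium and glands. Their r with slide means removed was 0.975, 0.953 and 0.928. Muc5b ran from 0.54 to 5.43 and Ltf from 0.89 to 6.10 over the 20 lungs.

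For Foxj1 the most alike were Saxo2 (0.983), Nme9 (0.980) and Cfap65 (0.980), and for Tekt1 Cldn10 (0.992), Hnmt (0.986) and Cdhr3 (0.985). With slide means removed these were 0.89, 0.93 and 0.90 for Foxj1, and 0.92, 0.84 and 0.86 for Tekt1. For Cyp2f2 they were the dynein intermediate chain gene Dnaic1 (0.834), Rsph1 (0.819), a radial spoke gene, and Tmem107 (0.815). With slide means removed, Dnaic1 stood at 0.916, Rsph1 at 0.789 and Tmem107 at 0.774. For Scgb1a1 they were Ap1b1 (0.850), Cd244a (0.849) and Luc7l3 (0.831), none of which was on the airway lists. Their r fell to 0.750, 0.645 and 0.673 with slide means removed.

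The 39 other motile cilium genes above background on all lung arrays had a median r of 0.925 with Foxj1 and 0.916 with Tekt1, and 38 of 39 were positive for each. Their median r was 0.675 with Cyp2f2, 0.740 with Scgb3a1 and 0.623 with Scgb1a1. The medians over all genes were 0.263, 0.279, 0.152, 0.118 and 0.129 in the same order. With slide means removed the cilium medians were 0.741, 0.679, 0.621, 0.665 and 0.423, while the medians over all genes were between -0.044 and -0.003. Genes are not independent replicates, and these are descriptions over the same 20 arrays.

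The comparison of tissues in D0 mice asked where the genes were expressed. Against liver, 7 of 8 probes were called higher in lung (25.4% of 33255 probes were, limma), and against forestomach 8 of 8 were (18.8%). All liver arrays were on slides 6 to 8 and all lung and forestomach arrays on slides 1 to 5, so that slide and tissue cannot be told apart in a comparison with liver. On slides 1 to 5 lung lay in row 1 and forestomach in row 2, so that row and tissue cannot be told apart between these 2. The genes had been named as lung airway markers, so that these counts check the label. Mouse is shared by the 3 tissues, and with it as a replicate block the same 7 and 8 probes were called (25.6% and 18.9% of all probes).

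The Cy3 channel carried the same reference on every array, yet for the brightest members it moved with the tissue. For Scgb1a1 the unnormalized log2 Cy3 signal had a median of 12.19 in lung, 7.88 in forestomach and 5.47 in liver, beside Cy5 medians of 18.53, 11.50 and 6.58. For Scgb3a1 it ran from 5.53 to 10.50 within lung, as Cy5 ran from 7.09 to 15.33. Among 364 probes at a log2 Cy5 over 14 in lung and within 0.5 of it in liver, the median difference in Cy3 between these tissues was 0.14. Among 245 probes over 14 in liver and more than 4 lower in lung, it was -1.5, and among 55 probes over 14 in lung and more than 4 lower in liver it was 0.46. Cyp2f2 had a Cy3 median of 11.11 in lung and 10.22 in liver although its Cy5 medians were 17.30 and 17.43. The origin of the Cy3 signal was not tested. A ratio whose denominator moves with its numerator is narrowed, so differences in scaled Cy5 are given beside it. The reference still enters scaled Cy5 through its scaling.

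**Figure D4:**
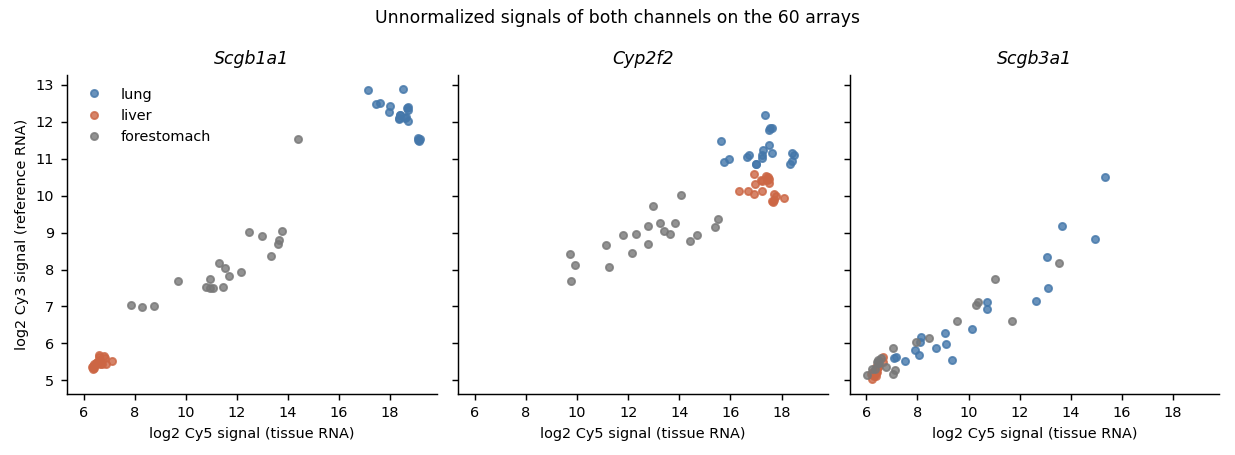
Unnormalized log2 Cy3 signal (reference RNA) against log2 Cy5 signal (tissue RNA) for Scgb1a1, Cyp2f2 and Scgb3a1, with 1 point for each of 60 arrays coloured by tissue. Between tissues the Scgb1a1 reference signal is higher where the tissue signal is higher, but within lung the 4 arrays with the highest Scgb1a1 Cy5 have the lowest Cy3.

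Scgb1a1 in lung of D0 mice exceeded forestomach by 2.66 ± 0.31 (SE; adjusted p = 3.4e-10, limma), which is 6.31-fold, and by 6.04 ± 0.60 in scaled Cy5, which is 65.9-fold. It was also called higher than in liver (adjusted p = 3.8e-27, limma), where it was above background on 2 of 5 D0 arrays, so that no size is given. Cyp2f2 in lung exceeded forestomach by 1.59 ± 0.24 (adjusted p = 1.0e-07, limma), or by 3.58 ± 0.30 in scaled Cy5. Between lung and liver Cyp2f2 differed by -0.37 ± 0.24 as a ratio (adjusted p = 0.163, limma) and by 0.59 ± 0.30 in scaled Cy5 (0.0866), so that no direction can be given.

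Foxj1 and Tekt1 were called higher in lung than in both other tissues, with adjusted p-values in limma of at most 9.9e-15. Where a tissue was not well above background on any D0 array, only a bound can be given, from scaled Cy5 against the dimmest signal above background. On that measure Tekt1 was at least 15.7-fold higher in lung than in liver and at least 15.1-fold higher than in forestomach, Foxj1 at least 8.21-fold higher than in forestomach, and Ccdc39 at least 1.34-fold and 1.33-fold higher. Scgb3a1 was at least 23.5-fold higher in lung than in liver and Bpifa1 at least 15.7-fold higher, but without the lung of D0 mouse 1 these bounds were 12.8-fold and 8.59-fold, and that of Bpifa1 was 25.4-fold without D0 mouse 4. Ccdc39 was the weakest of these, above background on 3 of 5 D0 lungs.

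In forestomach, a squamous part of the stomach, Scgb1a1 in D0 mice was 5.18, 6.26, 3.01, 5.34 and 5.04, and over all 20 mice it ran from 3.01 to 6.26 with a median of 5.12. The 4 arrays of slide 3 averaged 3.72, below the other slides at 5.10 to 5.44 (adjusted p = 0.002 for slides, limma, where 37.4% of probes passed). Liver of the same mice stood between 0.15 and 1.14. In D0 mice, Scgb1a1 was lower in liver than in forestomach (adjusted p = 1.0e-18, limma) and Cyp2f2 was higher by 1.96 ± 0.24, and these were the 2 of 8 probes called between liver and forestomach (background 39.2%, limma).

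The forestomach array of D0 mouse 2 stood apart. Its Bpifa1 was 4.55, where the other 19 arrays were at 0.25 or lower and none was above background, and its Scgb1a1 and Cyp2f2 were the highest of the 20. The alveolar type 2 genes Sftpc, Sftpa1 and Sftpb, which encode surfactant proteins, were at 7.57, 6.48 and 5.85 on this array, beside medians of 0.45, -0.03 and 0.17. The alveolar type 1 gene Ager was at 3.26 with a median of -0.17. Of the other listed alveolar genes, Aqp5 was at 3.13 (next array 1.06) and Lamp3 at -0.23 (next -1.04). Abca3 and Pdpn were close to the next array, at 0.93 against 0.88 and -1.70 against -1.84. Hopx was highest in D1 mouse 10, at 5.48. Without this array Scgb1a1 in lung exceeded forestomach by 2.98 ± 0.31, and all 8 probes were called (limma), Bpifa1 against forestomach arrays none of which was then above background. On the other 19 arrays Sftpa1 was at 0.31 or lower and above background on none, while Sftpc reached 4.35 and was above background on 7 of them. Scgb1a1 was above background on all 19, and the part of lung RNA in its level there was not tested.

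Scgb3a1 in forestomach fell into high and low mice within doses. It was 0.44, 3.04, 0.085, 0.66 and 1.02 in D0, where the mean of 5 glandular stomach genes (Gkn1, Gkn2, Tff1, Atp4a and Cblif) was 1.27, 7.12, 6.35, 1.15 and 0.60 in the same mice. In D1 Scgb3a1 was 1.04, 5.12, 1.78, 4.51 and 5.49 beside glandular means of 1.60, 7.80, 6.65, 8.39 and 7.77. In D2 it was 0.39, 4.96, 0.70, 3.06 and 1.02 beside 0.65, 7.52, 7.12, 7.01 and 2.75.

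In D3 Scgb3a1 was 0.57, 0.33, 0.24, 4.90 and 5.68 beside 4.37, 0.23, 0.51, 7.01 and 4.55. Every mouse at 3 or above had a glandular mean of 4.55 or more, while mice 3, 8, 13 and 16, of which the first 3 were on slide 3, had glandular means between 4.37 and 7.12 with Scgb3a1 at 1.78 or lower. The part of glandular tissue in Scgb3a1, and in its D1 difference above, was not tested.

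**Figure D5:**
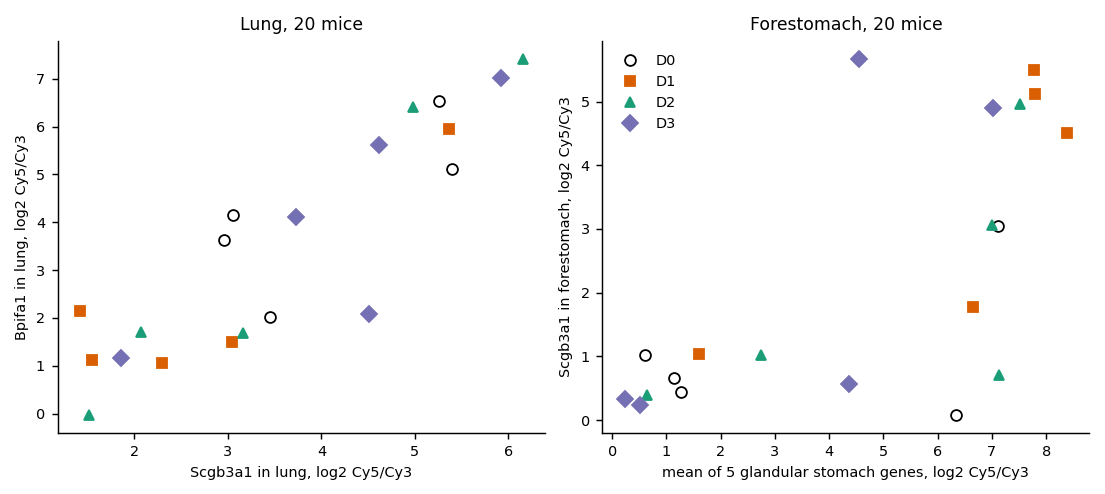
Left, Bpifa1 against Scgb3a1 in lung, and right, Scgb3a1 in forestomach against the mean of 5 glandular stomach genes, all as log2 Cy5/Cy3 with 1 symbol per mouse shaped by dose group. In lung the genes rise together over all doses, and in forestomach high Scgb3a1 occurs in mice with high glandular genes, while 4 mice have high glandular genes and low Scgb3a1.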

How the data were processed

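Tissue RNA (Cy5) and Universal Mouse Reference RNA (Cy3) were hybridized to Agilent oligonucleotide arrays, 60 arrays of 62976 spots on 8 slides (told apart by the array identifiers), with no dye swap. Per the file headers, Feature Extraction 10.7.3.1 (annotation build mm9) wrote the median signal intensity, background intensity and processed intensity of each spot. The deposited log2 ratios were made by the authors from median signals without background subtraction, by LOWESS in R. They correlated with the values used here at r between 0.992 and 0.999, ran in the same direction with slopes of 0.983 to 0.998, and had array medians of -0.041 to -0.014.

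Log2 ratios of median Cy5 to Cy3 intensity were normalized within arrays by loess without background subtraction (limma 3.58.1, R 4.3.3, R package data.table version 1.17.8), with weight 0 for the 3671 control spots. Values with an outlier flag (0.46%) were set to missing, and spots of a probe were averaged (10 each for Scgb1a1 and Scgb3a1). Symbols came from RefSeq through the accession without its version; 26413 of 55681 probes had 1 symbol. For genes with several probes the brightest in lung was used, and both probes of Tekt1 were tested. A probe was tested if it was well above background on at least 5 arrays of a tissue.

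Each dose was compared with D0 within a tissue by limma (lmFit, eBayes) across all probes, with Benjamini-Hochberg adjustment, without a block and with slide as a block. Tissues were compared in D0 mice over all 60 arrays. Samples were grouped by their labels, and the mouse number in the labels pairs tissues of the same animal. Intervals are 95%. On simulated data for lung at D3 with 31022 probes, 85% of probes changed by 1 and 98% of those changed by 2 (log2) were called, with 4 false calls. The changed probes were drawn at random from all tested probes, with independent noise and no slide differences. Bpifa1, Scgb3a1, Tekt1 and Foxj1 had within-dose SDs at the 96.4th percentile or higher, so these shares do not hold for them. The number of arrays limits the precision. The genes and lists were chosen with earlier results of these data known. The genes named were all member probes, the 3 genes most alike in lung to each member above background on all 20 arrays, and of each list the 3 largest and 3 most negative differences at D3, of which 1 gene is not reported here. The glandular stomach means, the Cy3 comparison, Cy5 without scaling, list counts and bounds with a lung left out, and the values without the forestomach array of D0 mouse 2 were chosen after the values had been seen. Alternatives were normexp (offset 50), processed signals, deposited ratios, Cy5 scaled between arrays (Aquantile) without division by its reference, other filters, a variance trend, blocks and leaving out each mouse.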

Additional observations from a re-analysis of the deposited data

Results flagged for a closer look

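In 56 groups of 5 mice, 4 held a value far from the other mice by Dixon's test, where chance flags about 1 in 20 groups, or 2.8 here. Bpifa1 in forestomach of D0 mouse 2 was 4.548, with the next mouse at 0.066. Bpifa1 in lung of D1 mouse 6 was 5.945, with the next at 2.148. Scgb1a1 in forestomach of D1 mouse 8, on slide 3, was 3.433, with the next at 5.225. Tekt1 in forestomach of D1 mouse 10 was 1.043, with the next at 0.173, and that array was the 1 forestomach array on which Tekt1 was well above background.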

How the results depend on the processing

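The counts of 0 probes called for dose in lung, liver and forestomach and for the slope in lung were 0 under every other setting run and without each mouse in turn. In D0 mice, 5 to 7 probes were called between lung and liver and 6 to 8 between lung and forestomach, with the lowest counts where a probe had to be above background on all 20 arrays of a tissue, which leaves out Bpifa1 and Ccdc39. Between liver and forestomach the count was 2, but 5 with processed signals (the cause was not tested). Without each D0 mouse the counts were 7, 7 to 8 (Ccdc39 was lost without mouse 5) and 2. With mouse as a replicate block, which pairs tissues of the same animal, they were 7, 8 and 2. Of the 21 pairs, 12 passed with slide removed, 11 with scaled Cy5 and 17 to 20 without each mouse, by permutation p-values that are too small, as described above.

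No lung difference named below passed its test, and signs near 0 turned. With normexp, Foxj1 at D2 was 0.030 and Ccdc39 at D3 0.015. With processed signals, Foxj1 was 0.0064 and Tekt1 -0.036 at D1, Scgb3a1 0.030 and Foxj1 0.034 at D2, and Bpifa1 0.018 at D3. With scaled Cy5, Scgb1a1 was -0.066, -0.093 and -0.070 at D1, D2 and D3, Cyp2f2 -0.11 at D2 and -0.071 at D3, Foxj1 0.018 at D2 and -0.014 at D3, and Ccdc39 0.041 at D3. The other 147 values of this kind kept their sign, but some moved in size. Over these settings Scgb3a1 at D1 ran from -1.82 to -0.295 and Tekt1 at D3 from 0.157 to 0.422. Ccdc39 ran from -0.656 to -0.027 at D1 and from -1.01 to -0.013 at D2.

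Without each mouse in turn, in fits without a slide block, 385 values kept their sign and 35 turned. At D1 the ranges were -0.083 to 0.074 for Cyp2f2, -0.30 to 0.18 for Foxj1, -0.22 to 0.44 for Tekt1 and -0.21 to 0.057 for Ccdc39. At D2 they were -1.09 to 0.066 for Scgb3a1, -0.013 to 0.14 for Cyp2f2, -1.85 to 0.013 for Bpifa1, -0.27 to 0.22 for Foxj1, -0.0068 to 0.65 for Tekt1 and -0.27 to 0.046 for Ccdc39. At D3 they were -0.35 to 0.67 for Scgb3a1, -1.05 to 0.41 for Bpifa1, -0.23 to 0.25 for Foxj1 and -0.15 to 0.11 for Ccdc39. Ccdc39, dim in lung, and the members below background in liver and forestomach are limited by signal.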
